A study of Mus musculus with 20 samples.

Results

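CD4+ iNKT1 cells from the thymus of C57BL/6 (BL6) mice were compared with the same subset circulating in blood, using the 3 thymus and the 3 blood libraries of a series of 20. The libraries were chosen by their labelled organ and strain, not by any measured value. Invariant natural killer T (iNKT) cells are T cells with a semi-invariant receptor for lipids presented by CD1d. They are selected in the thymus from CD4+CD8+ double-positive thymocytes, and the iNKT1 subset expresses the transcription factor T-bet and makes interferon-gamma. Some iNKT1 cells stay in the thymus as long-lived residents and others leave and recirculate, so the comparison sets thymic against circulating cells of one subset.

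The series covered CD4+ iNKT1 cells of blood, thymus, spleen and liver from BL6 mice, and of liver from BALB/c mice. The mice were females of 8 to 12 weeks. Thymi were cut and meshed in the cold, and how blood was prepared is not given in the sources used here. Blood cells are taken here to have been sorted as CD4+ CXCR3+ cells among B220- CD138- lymphocytes that bound CD3 antibody and the tetramer. The published methods of the study describe this gate for spleen and liver, without naming blood. Thymus cells were sorted on CD122 in place of CXCR3, with no CD138 exclusion, so the organ and the gate cannot be told apart. Blood libraries N1378 and N1382 came from 10700 sorted cells each, and the other 4 libraries from more. Cells of 4 to 6 mice were pooled before a sort, in 3 independent experiments, but no source used here says which library belongs to which experiment or how many mice lie behind each one, so p-values measure the spread between these libraries. The label of blood library N0962 says wild type (WT), and the labels of the other libraries compared give the strain with no genotype. On each side 1 library carried a number of the N09xx range (N0967 in thymus, N0962 in blood) and 2 carried numbers of the N13xx range (N1376 and N1380 in thymus, N1378 and N1382 in blood). Triplets of values below follow that order, and all are reads normalized by the authors' size factors.

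The thymus libraries held 11241647 to 12598227 reads and the blood libraries 11392720 to 14083153. Receptor transcripts of the sorted cells were present on both sides. Cd3e, a subunit of the T cell receptor complex, read 7340.2, 6533 and 6161 in thymus and 7324, 6769 and 6990.2 in blood, a log2 difference of -0.08 ± 0.11 (SE), adjusted p = 0.722. Traj18, the joining segment of the invariant receptor, read 150.3, 179 and 138 and 144, 158 and 119.6. For both genes the groups overlapped. The gate genes Il2rb and Cxcr3 were higher in blood, with values further on.

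Transcripts that mark other kinds of cells moved with the groups. Transcripts of double-positive thymocytes were abundant in the thymus libraries, where Rag1, which cuts receptor genes for recombination, read 7357, 14000.1 and 10481. In blood it read 1539.8, 487 and 88.8, against 0 to 56.8 in the 3 spleen libraries. Among the 3 blood libraries N0962 thus carried the most of this RNA and N1382 the least. Of the 20 markers listed for these cells, all 20 were tested and 15 were higher in thymus, against 5.05% of all genes tested. Their summed level was 29035 to 54881 in thymus and 14154 to 19149 in blood. Much of the blood sum was Satb1 (9465, 9107 and 9187) and Tcf7 (2468, 1551 and 1619). In spleen, where Rag1 was near 0, these 2 genes read 7971 to 9066 and 1497 to 1582. The blood sum is therefore no measure of thymocyte RNA alone. Within the thymus the sum fell in the order N1376, N1380, N0967. In N1382 the defining markers Rag2, Ptcra and Tdrd5 were listed at 0. The count of 15 was not stable: it was 6 without N1382, 8 without N1376, 8 without N1380, 9 without N1376 and N0962 together, 8 in a fit of all 20 libraries and 9 by DESeq2. Haemoglobin and haem synthesis transcripts were higher in blood, mostly in N1378, with Alas2 at 0, 3.66 and 1.049 in thymus and 43.2, 294 and 27.1 in blood. Of 8 erythroid markers tested 4 were higher in blood, against 5.43% of all genes tested, and 2 without N1378. Platelet markers summed to 120 and 204 in blood N0962 and N1378, to 8.41 in N1382 and to 3.15 to 12.6 in thymus. Of 18 B and plasma cell markers tested, Ighm, the IgM heavy chain, was higher in blood, at 898, 1143 and 904 in thymus and 1568, 1495 and 1492 in blood (-0.64 ± 0.11 (SE), adjusted p = 0.000692), and Jchain was higher in thymus, with its call lost without N1376 (adjusted p = 0.0955) or N1380 (adjusted p = 0.0672). The B cell marker Cd79a stayed under 20 reads in each of the 6 libraries, and the summed list read 1007 to 2152 in thymus and 1769.5 to 2466 in blood. Of 6 neutrophil markers tested Mmp9 was higher in blood, and it made up most of a sum of 59.8 to 77.1 in thymus and 2162 to 2492 in blood. Dendritic cell markers summed to 383 to 628 in thymus and 167 to 258 in blood, with Ly6d and Bst2 higher in thymus (Bst2 not without N1378, N1382, N0967 or N1380), and of 3 thymic stroma markers tested Ctsl was higher in thymus. Of 9 NK cell markers tested 4 were higher in thymus, with sums of 3173 to 4583 in thymus and 2583 to 2889 in blood. Klrb1c, also a marker of iNKT1 cells, made up most of these sums, and Fcer1g is also on the iNKT1 list below. These markers thus do not tell NK cells from the sorted cells. Monocyte and macrophage markers summed to 213 to 421 in thymus and 147 to 481 in blood. The part of these transcripts in the differences between the organs was not tested. In bulk samples such as these, fewer cells of a type and less RNA per cell cannot be told apart.

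The libraries differed widely between the organs. Of 13604 genes tested with limma, 687 were higher in thymus and 739 higher in blood at an adjusted p under 0.05, which is 5.05% and 5.43% of the genes tested, 10.5% in all, and the counts of list members given below are to be read against these shares. The median log2 difference over all genes was 0.01. Large differences lay more often on the thymus side: 146 genes were over 8-fold higher in thymus and 40 over 8-fold higher in blood, on the log2 (value + 1) scale. The 3 and 3 libraries did not overlap for 27.1% of genes tested. The counts rested in part on single libraries, with 404 and 461 genes without thymus N1380, 423 and 471 without blood N1382, and 556 and 473 without blood N0962. Without N1376 and N0962, the libraries with the most thymocyte RNA on each side, the counts were 449 and 481.

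**Figure D1:**
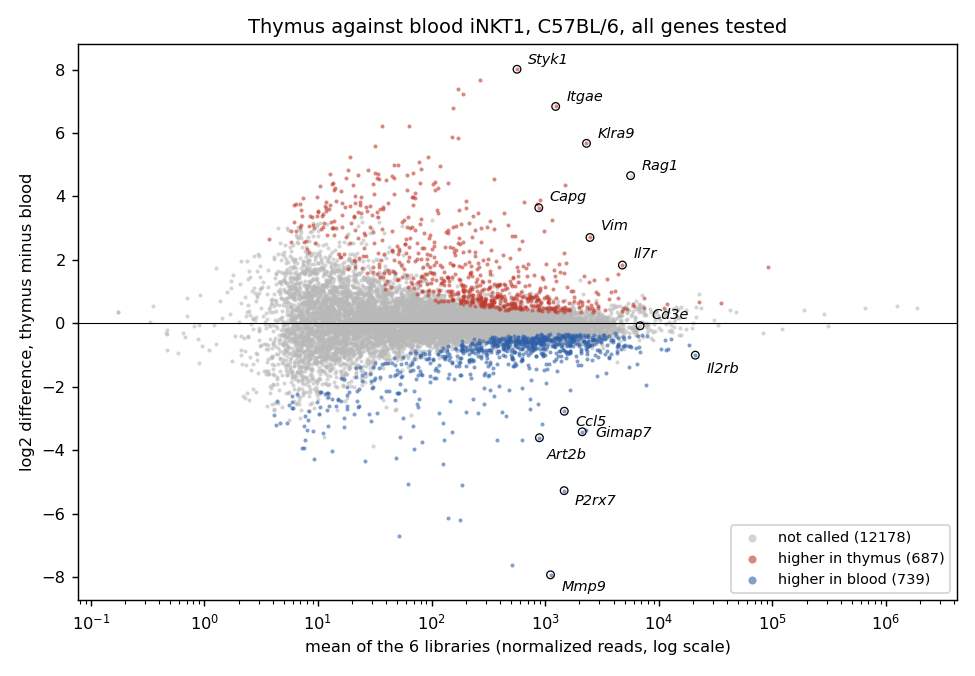
Difference between thymus and blood (y axis, log2 of thymus minus blood, on normalized reads + 1) against the mean of the 6 libraries (x axis, normalized reads, log scale) for the 13604 genes tested. Red points are the 687 genes higher in thymus, blue points the 739 higher in blood and grey points those not called; Rag1 lies far above 0 but is grey (adjusted p = 0.0888), and its blood values were 1539.8, 487 and 88.8.

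Among the genes highest in thymus relative to blood were adhesion and kinase genes that were all but absent from blood. Itgae encodes CD103, the integrin that binds E-cadherin on epithelial cells. It read 3075, 1984 and 2302 in thymus and 11.5, 17.3 and 40.17 in blood, a log2 difference of 6.84 ± 0.52 (SE), adjusted p = 3.03e-08. Mean thymus reads exceeded mean blood reads 107 times, and spleen and cold-prepared liver, at 19.7 to 46.9 and 2.201 to 6.82, were as low as blood. Cdh1 encodes E-cadherin itself, the ligand of CD103, and read 479, 514 and 598 against 3.84, 2.60 and 0 (7.67 ± 0.77 (SE), adjusted p = 1.25e-06). Styk1, a membrane protein with a kinase-like domain, was at 1312, 991 and 1073 in thymus and 0, 6.93 and 9.34 in blood. Its log2 difference was 8.01 ± 0.68 (SE), and it moved between 6.95 without N0962 and 8.63 without N1382, with its blood values near 0. No blood library came near the lowest thymus library for any of the 3 genes. Itgae and Styk1 were highest in N0967, the thymus library with the fewest thymocyte transcripts, and Cdh1 was lowest in that thymus library.

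The chemotactic receptors split between the organs. Of 18 chemokine and related receptors tested, 4 were higher in thymus and 4 in blood, against 5.05% and 5.43% of all genes. Ccr8, a receptor for CCL1 and CCL8, read 500.2, 244 and 271 in thymus and 0.96, 2.60 and 0 in blood (7.39 ± 0.92 (SE), adjusted p = 1.76e-05), and N0967 again stood highest. Gpr183, the oxysterol receptor that guides lymphocytes within lymphoid tissue, was at 1200.0, 528 and 837 against 74.8, 120.4 and 89.7 (3.11 ± 0.27 (SE), adjusted p = 1.96e-07). Both were scarce in blood, where no library reached the lowest thymus value. Gpr183 overlaps Ubac2 on the opposite strand, whose mean was 836.3 in thymus and 767.5 in blood, so some of its reads may belong to that gene. Other receptors went the opposite way. Ccr2, the CCL2 receptor that serves exit of monocytes from bone marrow, read 1987, 1017 and 1257 in thymus and 4251, 4694 and 3958 in blood (-1.65 ± 0.19 (SE), adjusted p = 5.67e-06). Cxcr6, a receptor used by liver iNKT cells, was also higher in blood, by a log2 difference of -0.76 (adjusted p = 0.00654), and the blood groups lay above the thymus for both.

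**Figure D2:**
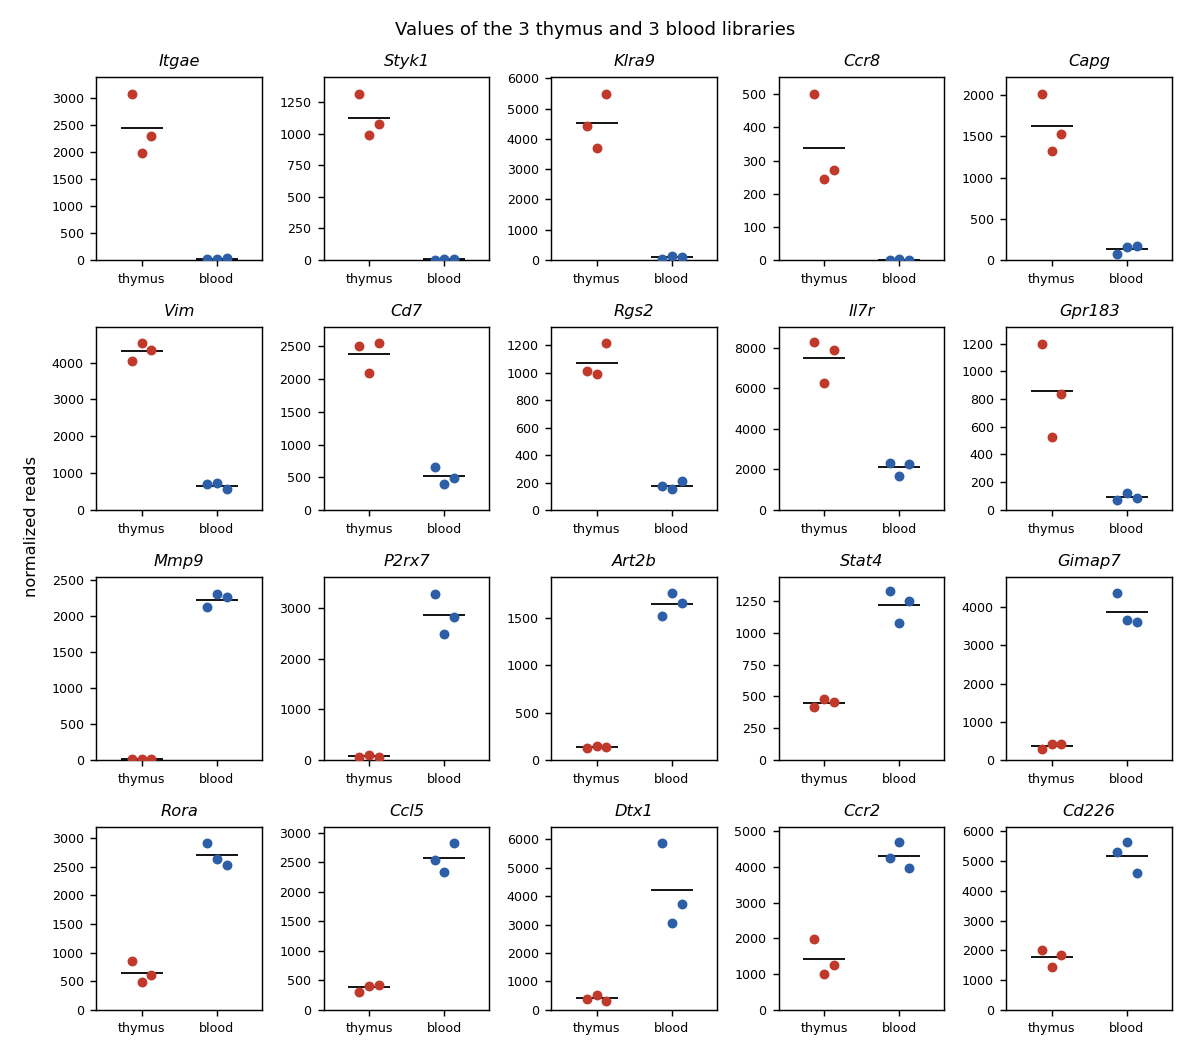
Normalized reads (y axis, linear, from 0, a separate scale per gene) of 20 genes in the 3 thymus libraries (red) and the 3 blood libraries (blue); each point is 1 library and the black line is the group mean. In every panel the groups are apart, with Itgae, Styk1 and Ccr8 close to 0 in blood and Mmp9 and P2rx7 close to 0 in thymus.

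Most NK cell receptor genes tested were higher in thymus. Of 26 tested, 15 were higher in thymus and 3 in blood, with a median log2 difference of 0.88 against 0.01 over all genes. The inhibitory and activating Ly49 receptors, which bind MHC class I, made up most of the rise. Klra9 read 4429.9, 3686 and 5481 in thymus and 48.9, 120.4 and 110.2 in blood (5.67 ± 0.26 (SE), adjusted p = 1.33e-11), and Klra1 read 961, 757 and 1264 and 151, 219 and 216 (2.33 ± 0.26 (SE), adjusted p = 5.27e-06). The ratio of means was 48.6 for Klra9 and 5.09 for Klra1, and neither gene had overlapping groups. Klra10, Klra7, Klra5, Klra6, Klra3, Klra8 and Klra13-ps were higher in thymus too, but Ly49 genes are near-identical copies, so reads of one can be counted to another and the split within the family is uncertain. Klra8 lost its call without N1382 (adjusted p = 0.0827) or without N1380 (adjusted p = 0.0605). Outside the family, Fcer1g, an adaptor that carries signals of activating receptors, read 229.9, 263 and 333 against 55.6, 70.1 and 39.2 (2.32 ± 0.29 (SE), adjusted p = 1.67e-05). Klrb1c, which encodes NK1.1, the marker of mature iNKT1 cells, did not pass the test, with 3140.2, 2184 and 3314 in thymus and 2020.4, 2299 and 2437 in blood. Of the 3 genes higher in blood, Cd160, a receptor for the herpesvirus entry mediator, was the most abundant (-0.92 ± 0.13 (SE), adjusted p = 7.99e-05), and this count of 3 was 1 without N0967. The ordering of libraries in Klra9 (N1380 highest, N1376 lowest) was not that of the thymocyte markers.

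Cytotoxic granule genes showed no common direction, with 5 of 21 higher in thymus, 3 higher in blood and a median of 0.02. Gzmb, the main apoptosis-inducing granzyme, read 3407, 3815 and 4136 in thymus and 1578, 2257 and 2176 in blood (0.93 ± 0.17 (SE), adjusted p = 0.000973). Gzma, the tryptase-like granzyme, was lower in level and differed more, at 256, 316 and 372 and 72.9, 12.1 and 17.8 (3.57 ± 0.55 (SE), adjusted p = 0.000187). Ctsw, a protease of NK and cytotoxic T cells, was higher in thymus as well (0.70 ± 0.12 (SE), adjusted p = 0.000579). Every thymus library was above every blood library for the 3 genes. Stx11, a membrane fusion protein needed for granule release, was higher in blood, at 42.9, 76.8 and 78.7 in thymus and 164, 264 and 216 in blood. Prf1, encoding perforin, did not pass (-0.11 ± 0.18 (SE), adjusted p = 0.769). The blood-high count of 3 was 1 without N0962 and 1 without N1378.

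Genes associated with tissue residency were mixed, with 11 of 26 higher in thymus and 5 in blood (7 in thymus in a fit of all 20 libraries). Rgs2, which shortens signals of G protein-coupled receptors, read 1017, 988 and 1217 in thymus and 173, 149.8 and 211 in blood (2.60 ± 0.15 (SE), adjusted p = 6.68e-10). Cd101, a surface protein of resident T cells, read 402, 273 and 402 and 76.8, 73.6 and 64.5 (2.29 ± 0.21 (SE), adjusted p = 4.09e-07). Ahr, the aryl hydrocarbon receptor, was at 594, 375 and 431 and 71.0, 75.3 and 82.2 (2.57 ± 0.26 (SE), adjusted p = 1.6e-06). For each the groups were far apart and the 3 blood libraries lay close together. Other genes of the same list were higher in blood, namely P2rx7, Bhlhe40, Prdm1, Cxcr3 and Cxcr6. Cd69, whose product keeps lymphocytes in tissue by removing S1PR1 from the surface, read 429, 472 and 792 and 385, 479 and 445, did not pass the test (0.32 ± 0.20 (SE), adjusted p = 0.341) and had overlapping groups.

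Transforming growth factor beta controls CD103 in other T cells, and 4 of 18 genes listed for that pathway were higher in thymus and 2 in blood. Skil, a feedback repressor of SMAD signalling, read 2245, 1933 and 2438 against 687, 734 and 752 (1.599 ± 0.11 (SE), adjusted p = 9.88e-09). Tgif1, another SMAD corepressor, read 168, 138 and 133 and 31.7, 38.1 and 34.6 (2.04 ± 0.34 (SE), adjusted p = 0.000431), and Smad7, the inhibitory SMAD, differed by 0.53 ± 0.12 (SE), adjusted p = 0.00613. The blood-high genes were Smad3 and Itgav, and 1 such gene was left without N1376 and N0962. The receptor genes Tgfbr1 and Tgfbr2 did not pass, with log2 differences of 0.24 and -0.13. The receptor gene Tgfbr3 was higher in thymus, at 332, 314 and 238 against 22.1, 42.4 and 41.1 (3.07 ± 0.57 (SE), adjusted p = 0.00128).

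Cytoskeletal and membrane-binding proteins formed another thymus-high list, with 7 of 20 annexin, S100 and related genes higher in thymus, 1 in blood and a median of 0.42. Vim encodes the intermediate filament vimentin and read 4042, 4528 and 4335 in thymus and 692, 729 and 563 in blood (2.71 ± 0.22 (SE), adjusted p = 6.99e-08). Capg, which caps actin filaments, read 2017, 1318 and 1536 and 77.7, 155 and 170.0 (3.64 ± 0.34 (SE), adjusted p = 4.48e-07). Anxa2, a calcium-dependent membrane-binding protein, read 1369, 1867 and 1584 and 406, 523 and 396 (1.86 ± 0.17 (SE), adjusted p = 2.49e-07), and Lgals3, the galactoside-binding galectin-3, differed by 3.01 ± 0.36 (SE), adjusted p = 9.98e-06. The lowest thymus library was above the highest blood library for all 4. The gene higher in blood, Anxa6 (-0.31), lost its call under 5 of the 6 single omissions (adjusted p = 0.0541 to 0.158; kept without N1378), with edgeR and in the fits of 6 and of 20 libraries. Lgals1 and S100a4 did not pass, with log2 differences of 0.41 and 2.03.

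Genes of immature iNKT cells and of positive selection were also higher in thymus, 12 of 26, with 2 higher in blood. Of these 12, 3 (Cd24a, Tcf7 and Satb1) were also on the list of thymocyte markers. Itm2a, a membrane protein induced at positive selection, read 1013, 787 and 1059.5 in thymus and 121, 151 and 145 in blood (2.77 ± 0.29 (SE), adjusted p = 2.24e-06). Id3, an inhibitor of E proteins, read 160.4, 186 and 107 and 10.6, 8.66 and 1.87 (4.44 ± 0.53 (SE), adjusted p = 1.29e-05). Tox, a factor required for CD4 lineage and iNKT development, read 817, 725 and 565 and 292, 277 and 308 (1.25 ± 0.15 (SE), adjusted p = 1.52e-05). In none of these 3 genes did the thymus libraries follow the order of the thymocyte markers. Sox4 and Myb did: Sox4, which acts early in thymocyte development, read 329.7, 1045 and 629 against 90.2, 21.6 and 7.47, and Myb read 1095, 2159 and 1877 against 354, 276 and 105. The library order N1376, N1380, N0967 was taken from the summed thymocyte markers. Among all genes called higher in thymus 27.4% had this order, against 19.5% of the genes tested. With the genes of the marker list left out, the former share was 25.9%. Among genes over 8-fold higher in thymus, with markers included, the share was 38.4%. The markers set the order, so their own match is built in to some degree, and no share without them was taken for this set. The part of thymocyte RNA in these differences was not tested. The 2 blood-high genes were Fyn, the SAP-linked kinase (-1.08 ± 0.13 (SE), adjusted p = 1.46e-05), and Zbtb16. The count of 2 was 4 without N1376, 1 without N0962 and 1 without N1380.

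**Figure D3:**
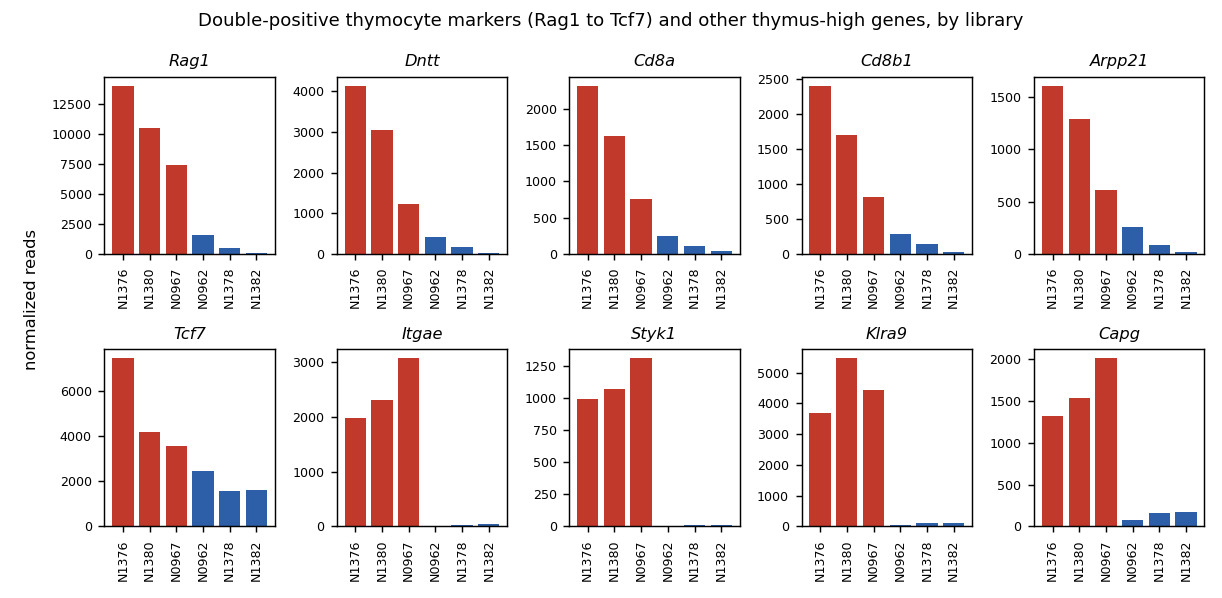
Normalized reads (y axis, from 0, a separate scale per gene) by library, with the thymus libraries in red and ordered by their summed thymocyte markers, and the blood libraries in blue. Rag1, Dntt, Cd8a, Cd8b1, Arpp21 and Tcf7 are markers of double-positive thymocytes and are highest in N1376; Itgae, Styk1 and Capg are highest in N0967 and Klra9 in N1380.

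Immediate early and AP-1 genes, which rise within minutes of stimulation or handling, were higher in thymus in 13 of 38 cases and in blood in 2. The thymus count was 8 in a fit of all 20 libraries, and the blood count was 1 in that fit and without N0962, N1382 or N1380. Egr3, induced by the T cell receptor, read 572, 401 and 381 against 107, 86.6 and 149 (1.98 ± 0.23 (SE), adjusted p = 5.99e-06). Dusp1, a phosphatase of p38 and JNK, read 368, 299 and 435 and 171, 115 and 129 (1.41 ± 0.18 (SE), adjusted p = 2.95e-05), and Fosl2, a FOS family member, differed by 1.22 ± 0.19 (SE), adjusted p = 0.000167. The groups were apart for each gene. Fos itself did not pass (log2 difference 1.79, adjusted p = 0.0926), nor did Jun (-0.54, adjusted p = 0.255). Dusp6, the ERK phosphatase, went the other way, with 541, 367 and 411 in thymus and 1341, 1712 and 1731 in blood (-1.87 ± 0.15 (SE), adjusted p = 4.13e-08). The thymus was prepared in the cold and the blood preparation is not given, so organ and preparation cannot be told apart for these genes. Heat shock chaperones gave few calls: by limma 0 of 31 were higher in thymus and 1, Dnajc3, in blood, with 3 and 4 at an unadjusted p under 0.05. The 2 count models, edgeR and DESeq2, each gave 0 and 1. The thymus count was 2 with the N13xx libraries alone and 1 with the 6 libraries alone, the library range block, quantile normalization or without N0962, and the blood count was 2 with the block or without N1376. Hspa1a and Hspa1b, the inducible HSP70 genes, were near 0 in most libraries: Hspa1b read 3.79, 9.14 and 15.7 in thymus and 55.6, 8.66 and 9.34 in blood (-0.93 ± 0.62 (SE), adjusted p = 0.387).

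Interferon-stimulated genes were higher in thymus in 9 of 43 cases and in blood in 3. Ifit3, an antiviral protein induced by interferon, read 582, 774 and 1029 in thymus and 206, 132 and 229.8 in blood (2.07 ± 0.23 (SE), adjusted p = 5.31e-06). Isg20, an RNA exonuclease, read 380.2, 369 and 453 and 107, 101 and 113 (1.89 ± 0.29 (SE), adjusted p = 0.000173), and Rsad2, encoding viperin, differed by 1.61 ± 0.26 (SE), adjusted p = 0.000304. N1380 was the highest thymus library for all 3. The 3 genes higher in blood were Ifi206, Igtp and Gbp4, of which Igtp and Gbp4 are induced by interferon-gamma. Gbp4 lost its call without N0962, N1378, N1382 or N0967 (adjusted p = 0.061 to 0.171), and the count of 3 was 1 in a fit of all 20 libraries and 5 with the library range block.

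On the blood side the largest differences were again near presence and absence. Mmp9, a gelatinase that cuts basement membrane collagen, read 11.4, 6.40 and 7.34 in thymus and 2116, 2301 and 2253 in blood (-7.93 ± 0.27 (SE), adjusted p = 1.06e-13), a 266-fold ratio of means. Neutrophils make Mmp9 too. The other 9 neutrophil markers together read 65.7, 61.3 and 52.5 in thymus and 46.0, 191 and 26.2 in blood. Spleen and cold-prepared liver held 827 to 1850.5 and 2370.2 to 3886 reads of Mmp9. Pak6, a p21-activated kinase, read 6.32, 6.40 and 1.049 against 413, 299.6 and 347 (-6.19 ± 0.41 (SE), adjusted p = 4.77e-09). Dtx1, a regulator of Notch signalling, read 381, 505 and 312 against 5849, 3053 and 3732 (-3.37 ± 0.23 (SE), adjusted p = 7.03e-09), and N0962 stood above the other blood libraries.

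The extracellular NAD and ATP sensing system held more blood-high than thymus-high genes. P2X7 is an ATP-gated channel that the ecto-enzyme ART2.2 can open by ADP-ribosylation when NAD is released. P2rx7 read 64.4, 99.7 and 59.8 in thymus and 3282, 2488 and 2826 in blood (-5.27 ± 0.18 (SE), adjusted p = 1.06e-13), a ratio of 38.4. Art2b, encoding ART2.2, read 126, 144 and 132 and 1519, 1760.3 and 1662 (-3.61 ± 0.11 (SE), adjusted p = 5.23e-14). For both, every thymus library lay far below the lowest blood library. Spleen and cold-prepared liver were also far above thymus, so these levels were not particular to blood. P2rx7 read 2126 to 3158 in spleen and 2588 to 3483 in liver, and Art2b 2093 to 2288 and 1767 to 2018.5. Art2a-ps, its neighbouring pseudogene in this strain, was listed at 0 in the 3 thymus libraries and at 106, 94.4 and 107 in blood, at least 27.0-fold higher when thymus is set to a floor of 3 reads per library. Reads of Art2b and Art2a-ps may be exchanged, since the copies are similar. Cd38, an enzyme that consumes NAD, was higher in blood (-2.05 ± 0.17 (SE), adjusted p = 1.11e-07), as was Entpd1, encoding CD39, which degrades ATP (-0.74 ± 0.15 (SE), adjusted p = 0.00281). Nt5e, encoding CD73, which makes adenosine, was higher in thymus, with 923, 749.7 and 795 against 403, 222 and 395 (1.32 ± 0.22 (SE), adjusted p = 0.000516). In all, 7 of 14 genes of this list were higher in blood and 3 in thymus.

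GIMAP GTPases, small membrane-bound proteins needed for survival of naive and recirculating T cells, were higher in blood in 6 of 8 cases and in thymus in 0, with a median of -0.75. No GIMAP gene reached an unadjusted p under 0.05 in the thymus direction by limma, and edgeR and DESeq2 called 0 there too. Gimap7 read 283, 404 and 410.2 in thymus and 4361, 3653 and 3616 in blood (-3.42 ± 0.13 (SE), adjusted p = 5.06e-13). Gimap3 read 3784, 3267 and 4217 and 9493, 8382 and 9694 (-1.30 ± 0.12 (SE), adjusted p = 3.67e-07). Gimap4, the most abundant, read 9639, 8142 and 8728 and 14956, 15775 and 15548 (-0.81 ± 0.12 (SE), adjusted p = 0.000165). All blood libraries were above all thymus libraries in each case, and the difference in Gimap7 was the largest of the list. High levels of these genes were not particular to blood. Gimap7 read 3213 to 3519 in spleen and 4005 to 4215 in cold-prepared liver, and Gimap4 17585 to 20252 and 17454 to 17875. Gimap5 and Gimap9 did not pass, at -0.33 and -0.10.

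MHC class I and antigen processing genes showed the same one-sidedness, with 7 of 18 higher in blood, 0 in thymus (0 also at an unadjusted p under 0.05 by limma, and by edgeR and DESeq2) and a median of -0.36. H2-Q7, a nonclassical class I gene of the Qa-2 group, read 1544, 1257 and 1585 in thymus and 3124, 3432 and 3019.6 in blood (-1.13 ± 0.11 (SE), adjusted p = 6.55e-07), although it shares sequence with other H2-Q genes. Nlrc5, the transactivator of class I genes, read 1084, 1262 and 1011 and 2279, 2011 and 2167 (-0.95 ± 0.16 (SE), adjusted p = 0.000482), and Tap2, a subunit of the peptide transporter, differed by -0.60 ± 0.10 (SE), adjusted p = 0.000373. The groups were apart in each. B2m did not pass (-0.37 ± 0.14 (SE), adjusted p = 0.0975). The blood-high calls of H2-T23 and Tap1 were lost without N0962, N1378, N1382, N1376 or N1380 (adjusted p = 0.0598 to 0.137).

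Integrins of the LFA-1 and beta3 kind were higher in blood, while the egress receptor gene did not pass the test. Of 24 integrin and adhesion genes, 3 were higher in thymus and 7 in blood, and of 25 egress and homing genes, 3 were higher in thymus (1 in a fit of all 20 libraries) and 7 in blood. Itgb2, the beta chain of LFA-1, read 9475, 7448 and 8156 in thymus and 14547, 15131 and 15108 in blood (-0.84 ± 0.12 (SE), adjusted p = 0.000126), and Itgal, its alpha chain, differed by -0.81 ± 0.17 (SE), adjusted p = 0.00405. Itgb3 read 1518, 1099.9 and 979.8 and 3123, 2798 and 2921 (-1.32 ± 0.17 (SE), adjusted p = 2.91e-05). Cd226, an activating receptor that also supports adhesion, read 2008, 1445 and 1838 and 5292, 5645 and 4589 (-1.56 ± 0.13 (SE), adjusted p = 5.65e-08). None of the 4 had overlapping groups. The egress receptor gene S1pr1 did not separate the organs: it read 360.0, 315 and 371 in thymus and 361, 428 and 415 in blood, with overlapping groups (-0.20 ± 0.23 (SE), adjusted p = 0.646). Klf2, which drives S1pr1, was higher in thymus by a small margin, 587, 644 and 587 against 412, 403 and 394 (0.59 ± 0.12 (SE), adjusted p = 0.00347; 0.59 and adjusted p = 0.108 in a fit of all 20 libraries), and Klf3 was higher in blood (-0.97 ± 0.10 (SE), adjusted p = 3.11e-06). Ccr7, which guides cells to lymph nodes, did not pass (1.10 ± 0.72 (SE), adjusted p = 0.378).

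The genes that define iNKT1 cells were expressed on both sides, several of them higher in blood. Of 21 such genes tested, 5 were higher in thymus and 6 in blood. Tbx21, encoding T-bet, read 1815, 1600.0 and 1884 in thymus and 2920.3, 2799 and 2672 in blood (-0.67 ± 0.10 (SE), adjusted p = 0.000171). Stat4, the IL-12 signal transducer, read 421, 476 and 454 and 1328, 1075 and 1252 (-1.43 ± 0.17 (SE), adjusted p = 8.33e-06). Ccl5, a chemokine stored by effector cells, read 306, 405 and 426 and 2544, 2344 and 2826 (-2.77 ± 0.14 (SE), adjusted p = 8.18e-11). Each was higher in every blood library than in any thymus library. Ifng was low on both sides, at 30.3, 25.6 and 40.9 and 75.8, 70.1 and 144 (-1.50 ± 0.31 (SE), adjusted p = 0.00314). Genes of the same list that were higher in thymus were Cd7, Fcer1g, Il18r1, Klrd1 and Klrk1. Cd7, a costimulatory surface protein, read 2512, 2091 and 2554 against 655, 403 and 491 (2.23 ± 0.17 (SE), adjusted p = 3.03e-08), and Il18r1, the IL-18 receptor, 2024, 1383.3 and 1992 against 800.1, 566 and 753 (1.34 ± 0.21 (SE), adjusted p = 0.000253). Il4 did not pass, with 77.1, 34.7 and 65.0 and 159, 74.5 and 68.2 reads (-0.73 ± 0.33 (SE), adjusted p = 0.184).

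Transcription factors of T cells were higher in blood in 13 of 39 cases and in thymus in 6. Rora, a nuclear receptor of innate-like lymphocytes, read 856, 478 and 604 in thymus and 2919, 2638 and 2528 in blood (-2.10 ± 0.16 (SE), adjusted p = 2.81e-08). Bhlhe40, a cofactor of T-bet in iNKT1 cells, read 738, 576 and 470.0 and 1392, 1382.8 and 1530.3 (-1.29 ± 0.14 (SE), adjusted p = 3.63e-06). In both, the highest thymus library was below the lowest blood library. Zbtb16, encoding PLZF, which directs iNKT development and declines in iNKT1 cells, read 1614, 1432 and 1006 and 2197, 1899.7 and 1921 (-0.59 ± 0.15 (SE), adjusted p = 0.0112). The groups did not overlap, but the call was lost without N0962 (adjusted p = 0.0571) or without N1380 (adjusted p = 0.0815). The thymus-high factors were Tcf7, Satb1, Myb, Id3, Tox and Ikzf2, of which Tcf7 and Satb1 are also on the thymocyte marker list.

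**Figure D4:**
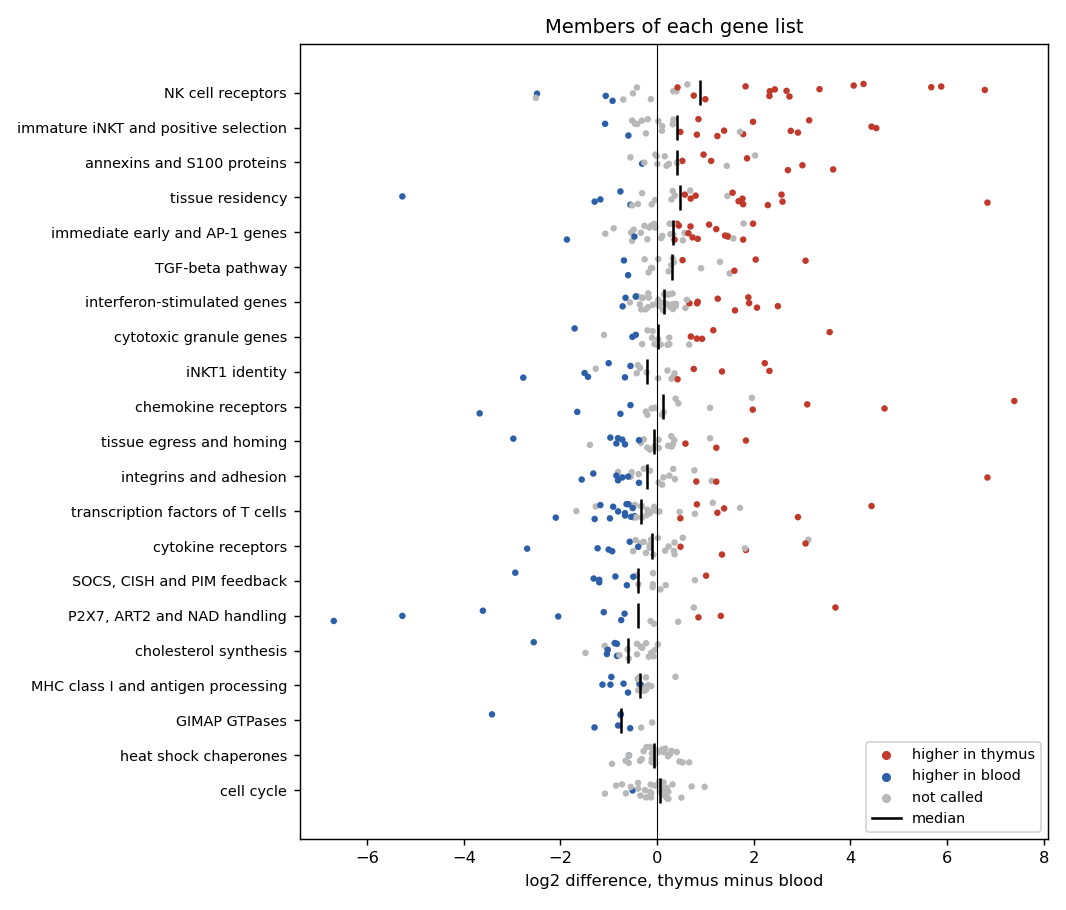
Log2 difference, thymus minus blood (x axis, normalized reads + 1), of each tested member of 21 gene lists (rows); red points were higher in thymus, blue points higher in blood, grey points were not called and the black tick is the median. NK cell receptors spread to the right with a median of 0.88, while GIMAP GTPases and cholesterol synthesis lie to the left with medians of -0.75 and -0.61; heat shock chaperones and the cell cycle have 1 called gene each.

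Cytokine receptor genes went in both directions. Il7r, the receptor for the survival cytokine IL-7, read 8267, 6277 and 7892 in thymus and 2329, 1682 and 2288 in blood (1.84 ± 0.17 (SE), adjusted p = 3.54e-07). Il2rb, the chain shared by the IL-2 and IL-15 receptors and the protein (CD122) used to gate the thymus cells, read 15562, 13305 and 13099.5 and 29836, 25927 and 28206 (-1.003 ± 0.14 (SE), adjusted p = 8.2e-05). Il2ra, the alpha chain of the IL-2 receptor, read 128, 371 and 155 and 1239, 1167 and 1386 (-2.69 ± 0.27 (SE), adjusted p = 1.25e-06). The groups were separate in each, with Il7r high in thymus and the IL-2 receptor chains high in blood. Over the list, 4 of 28 were higher in thymus and 6 in blood, against 5.05% and 5.43% of all genes. The thymus count was 7 with a pseudocount of 10.

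Feedback genes that cytokine-activated STAT factors are known to induce were higher in blood in 7 of 16 cases and in thymus in 1. Socs2, an inhibitor of STAT5 signalling, read 89.7, 85.9 and 144 in thymus and 816, 794 and 785 in blood (-2.94 ± 0.18 (SE), adjusted p = 1.15e-09). Cish, a related inhibitor, read 445, 325 and 347 and 1024, 772 and 768 (-1.20 ± 0.15 (SE), adjusted p = 1.51e-05), and Pim1, a survival kinase, 637, 833 and 733 and 1698, 1611 and 1723 (-1.20 ± 0.12 (SE), adjusted p = 1.01e-06). Bcl2, the survival factor, read 2336, 2322 and 2804 and 4341, 4384 and 4815 (-0.86 ± 0.12 (SE), adjusted p = 7.83e-05). Every blood library exceeded every thymus library in the 4 genes. Socs3 was higher in blood too (-1.31 ± 0.20 (SE), adjusted p = 0.000231), and the exception was Pim3, higher in thymus (1.01 ± 0.19 (SE), adjusted p = 0.00128). With the N13xx libraries alone 2 genes of this list were higher in thymus.

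Genes of cholesterol synthesis and its control were higher in blood in 6 of 23 cases and in thymus in 0, with a median of -0.61. At an unadjusted p under 0.05 limma gave 13 higher in blood and 0 in thymus, and edgeR and DESeq2 called 0 in thymus. The blood-high calls of Insig1 and Lss were lost without N1378, N1382 or N1380. Insig1 also lost its call without N0967 and Lss without N1376 (adjusted p = 0.0515 to 0.131 over these omissions). Srebf2, the transcription factor that drives this pathway when sterols are low, read 736, 1024 and 796 in thymus and 2007, 1606 and 1570.5 in blood (-1.02 ± 0.18 (SE), adjusted p = 0.000676). Stard4, a sterol transfer protein, read 388, 259.7 and 324 and 619.8, 526 and 566 (-0.83 ± 0.15 (SE), adjusted p = 0.00118). Cyp51, the lanosterol demethylase, read 123, 227 and 198 and 375, 383 and 336 (-1.04 ± 0.23 (SE), adjusted p = 0.00458). The groups did not overlap in any of the 3, although Cyp51 overlaps Akap9 on the opposite strand (mean 989.4 in thymus and 984.1 in blood).

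Spleen and cold-prepared liver lay on different sides for several of these genes. Socs2 stood at 733 to 808 in cold-prepared liver, the range of blood, and at 219.6 to 345 in spleen, between thymus and blood. Il7r was the reverse, 6046 to 7021 in spleen and 1653 to 2336 in liver. Bcl2 read 1355 to 1673 in spleen and 4467 to 5086 in liver. For Il2ra both organs were near blood, at 1102 to 1511 and 1419.8 to 1756. These organ values are given side by side and were not tested here.

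**Figure D5:**
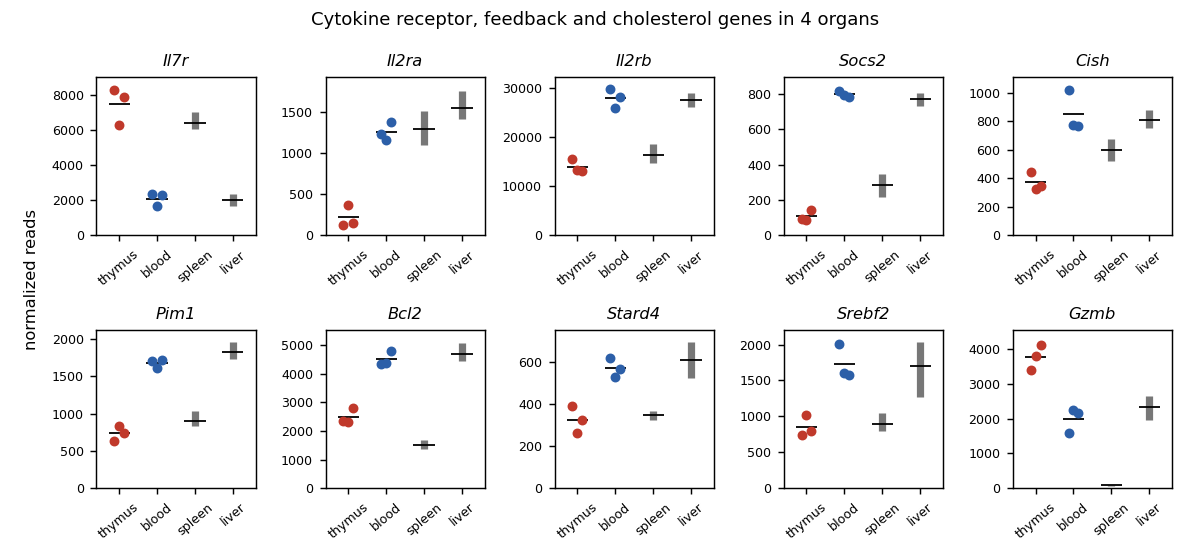
Normalized reads (y axis, linear, from 0, a separate scale per gene) of 10 genes; points are the 3 thymus (red) and 3 blood (blue) libraries, grey bars run from the lowest to the highest of 3 spleen and 3 cold-prepared liver libraries, and black lines are group means. Il7r is high in thymus and spleen, Socs2 and Pim1 are high in blood and liver, and Gzmb is lowest in spleen.

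The start regions of these 2 lists were searched for the letters their known regulators bind, because both lists held more blood-high than thymus-high genes. RefSeq windows of 250 bases before to 50 after the start (build GRCm38.p6) were used. STAT factors bind TTCNNNGAA, which is its own reverse complement and occurs in 8.30% of all 32851 windows. Windows were found for 11 of the 16 feedback genes, and 3 of these, Socs3, Cish and Bcl6, held the motif. A gene was counted, here and below, if any of its windows held the motif. Some genes have more than 1 window, so counts of genes are not directly comparable with shares of windows. Bcl6 did not pass the test of thymus against blood. Cish held 2 copies, the first starting at the first base after the annotated start, and the 30 bases around them on the plus strand of chromosome 9 (chr9:107296654-107296683) are shown with the motif in capitals. Socs3 held 1 copy, starting 154 bases before the start, and the 250 bases before its start on the minus strand of chromosome 11 (chr11:117969367-117969616) are shown likewise. The sterol regulatory element core TCACCCCA, searched on both strands, occurs in 1.56% of windows. Of the 24 cholesterol genes 16 had a window and 2 held it, Srebf2 and Hmgcs1, of which Srebf2 passed the test. It starts 162 bases before the start of Srebf2, on the plus strand of chromosome 15 (chr15:82147019-82147268). These matches are descriptions of the letters, not evidence of binding.
Cish: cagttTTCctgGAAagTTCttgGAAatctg
Socs3: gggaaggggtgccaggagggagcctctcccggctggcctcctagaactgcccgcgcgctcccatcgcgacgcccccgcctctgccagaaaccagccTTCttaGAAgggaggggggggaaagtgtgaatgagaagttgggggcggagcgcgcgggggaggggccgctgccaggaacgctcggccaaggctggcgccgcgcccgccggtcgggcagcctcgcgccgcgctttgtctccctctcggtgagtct
Srebf2: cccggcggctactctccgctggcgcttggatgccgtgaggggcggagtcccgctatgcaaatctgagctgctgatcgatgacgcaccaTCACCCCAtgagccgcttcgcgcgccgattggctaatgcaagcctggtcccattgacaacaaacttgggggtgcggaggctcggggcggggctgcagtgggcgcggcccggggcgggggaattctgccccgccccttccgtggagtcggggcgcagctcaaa

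Of 28 T cell receptor signalling genes, 2 were higher in thymus and 5 in blood, against 5.05% and 5.43% of all genes. The thymus count was 1 with the N13xx libraries alone and without N1378, N1382, N0967 or N1380, and the blood count was 3 in a fit of all 20 libraries and 10 with the library range block. Ptpn6, encoding the phosphatase SHP-1, read 5094, 4903 and 5057 in thymus and 2246, 2837 and 2580.4 in blood (0.98 ± 0.12 (SE), adjusted p = 1.41e-05), and Rasgrp1, an activator of RAS, differed by -1.10 ± 0.16 (SE), adjusted p = 0.000104. Of 40 cell cycle genes, 0 were higher in thymus and 1, Ccnd2, in blood by limma, with the same counts at an unadjusted p under 0.05, by edgeR and by DESeq2. Its call was lost without N0962 (adjusted p = 0.109), N1382 (0.0575), N1376 (0.0578) or N1380 (0.108). Without N1376 the count was 2. Mitochondrially encoded genes gave no call among 7 tested by limma, none at an unadjusted p under 0.05 and none by edgeR or DESeq2.

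The genes used for sorting were examined last. Cxcr3, taken to be gated in blood but not in thymus, read 2179, 1576 and 1598 in thymus and 2428, 2505 and 2843 in blood. It was higher in blood (-0.55 ± 0.13 (SE), adjusted p = 0.00704), with no overlap. Cd4, gated in both, read 1844, 2332 and 1818 and 2845, 2261 and 2443 and did not pass (-0.34 ± 0.12 (SE), adjusted p = 0.0875). Of the 134 named genes called, none had the opposite sign between the N09xx libraries alone. With only the N13xx libraries, 560 genes were higher in thymus and 496 in blood. With the library number range as a block in the fit, 898 and 1015 genes were called.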

How the data were processed

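RNA of sorted CD4+ iNKT1 cells was sequenced from 1 to 5 ng of total RNA with a stranded total RNA kit, 11 PCR cycles and single reads of 75 bases. The authors trimmed reads with Trim Galore 0.4.4, aligned them with STAR to GRCm38.p6, counted them per gene with featureCounts and divided the counts by DESeq2 size factors. The strand setting of the counting is not given in the sources used here, so overlapping genes on opposite strands may share reads. The deposited values are thus a signal of normalized reads per gene, in 1 table for 20 libraries. At least 99.98% of values in the 6 libraries were whole reads within 0.05 of a read once divided by the value of 1 read. Columns of the authors' own comparison (thymus against all other libraries, with log2 fold change, SE, Wald statistic and p-values) were not used.

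Values were tested as log2 (value + 1) with limma 3.58.1 (R 4.3.3) with a trended variance, in a fit of the 15 BL6 libraries in 5 groups, for genes at 10 or more in at least 3 libraries, with Benjamini-Hochberg adjustment over all genes tested (threshold 0.05). Fold changes on this scale understate the change of low genes. The recovered reads were also tested with edgeR 4.0.16 (663 genes higher in thymus, 674 in blood) and DESeq2 1.42.0 (829 and 871). The code was tested on simulated data. No gene list was tested as a set; lists are described by counts and medians beside those of all genes. Members and lists were chosen with earlier results of these data known. Genes named were the 15 highest and 15 lowest log2 differences among called genes with a group mean over 300 and no overlap, up to 4 genes per list by adjusted p, gate genes, the 3 most abundant markers per marker list and a few genes of iNKT biology, of which some are not reported here; further list members and the genes of the closing section were named after their values were seen. Libraries of a group differed by more than counting noise, with a chi-square per degree of freedom of at least 17.0, so none was counted as a duplicate. Genes with no read in a group were compared with a floor of 3 reads per library, which covers counting error only. N09xx and N13xx are ranges of library numbers in the labels and not a stated batch.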

Additional observations from a re-analysis of the deposited data

How the results depend on the processing

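Over 19 other fits, 108 of the 134 named genes that passed the test passed in every fit that tested them. The number of genes higher in thymus (687) was 444 in a fit of all 20 libraries and 449 without N1376 and N0962. It was 406 when only genes over 300 in 1 library were tested. A rule of at least 3-fold with an unadjusted p of at most 0.05, limited to genes over 300, gave 95. The number higher in blood (739) was 42 under the 3-fold rule and 481 without N1376 and N0962. Leaving out 1 library at a time gave 404 to 613 genes higher in thymus and 461 to 839 higher in blood. Without N1376 and N0962, a choice made after seeing the data, 810 genes were called in both fits, all with the same sign, which is 56.8% of the genes called with all libraries. No named gene that passed changed sign under any alternative. Another scaling (quantile, TMM, edgeR or DESeq2) moved the median of all genes by less than 0.1. No paired analysis was possible because the labels share no replicate numbers between the organs and no source used here assigns libraries to experiments. With the library number range as a block, 1423 of the 1426 calls were kept and 1913 were made. The thymus gate differed from the gate taken to hold for blood, and the preparation of blood is not given. Genes under about 10 reads carry wide errors.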

Other observations

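Some genes outside the lists also separated the organs, and were named after their values were seen. Among them were 3 glycosyltransferase genes higher in thymus, and other genes of that kind were not examined. St6gal1, the alpha-2,6-sialyltransferase, read 2707, 1818 and 1766 in thymus and 193, 265 and 189.7 in blood (3.26 ± 0.26 (SE), adjusted p = 5.06e-08). St8sia1, the GD3 synthase, read 892, 795 and 717 and 82.5, 101 and 41.1 (3.49 ± 0.36 (SE), adjusted p = 1.82e-06), and B4galnt4, an N-acetylgalactosaminyltransferase, 449.7, 368 and 295 and 13.4, 0 and 0 (7.23 ± 0.99 (SE), adjusted p = 5.49e-05). The lowest thymus library was above the highest blood library for each. Abca1, the cholesterol efflux pump, was higher in thymus, at 2372, 1855 and 2027 against 595, 574 and 531 (1.87 ± 0.15 (SE), adjusted p = 4.17e-08).

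Lyst, a regulator of lysosome and lytic granule size, read 3072, 3339 and 3205 in thymus and 12642, 11407 and 12551 in blood (-1.93 ± 0.14 (SE), adjusted p = 9.88e-09). Adgre5, encoding CD97, an adhesion receptor that senses flow-borne forces in circulating leukocytes, read 3288, 2934 and 2949 and 8219, 7249 and 8308 (-1.37 ± 0.12 (SE), adjusted p = 1.73e-07). Foxo3, a transcription factor of quiescence and survival, differed by -1.15 ± 0.15 (SE), adjusted p = 2.97e-05. All 3 were higher in every blood library than in any thymus library. Rn7sk, the abundant small nuclear RNA that holds the elongation factor P-TEFb, was the most abundant gene called, at 167359, 91942 and 162218 in thymus and 72698, 24598 and 35057 in blood (1.77 ± 0.32 (SE), adjusted p = 0.00102).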
